A study of Mus musculus with 16 samples.

Results

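Heat shock genes were followed through the formation of blood from mouse embryonic stem (ES) cells with and without the transcription factor Sp1. The 10 members, of 37149 genes tested, were the small heat shock proteins Hspb1, Cryab and Hspb8, the HSP70 proteins Hspa1a and Hspa8, their helpers Dnajb1 and Hsph1, the cytosolic HSP90 Hsp90aa1, and the mitochondrial chaperonin pair Hspd1 and Hspe1. They were set together because Hspb1 was low in Sp1-/- progenitors, and the question was whether that difference was shared. The members were thus chosen by values of the progenitor comparison between genotypes, which is described here without a test. The same holds for the step from HE2 to progenitors in either genotype, and for the interaction of genotype with that step. Where a gene had several probes, the brightest was taken.

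RNA came from 4 populations: Flk1+ cells, which are mesoderm cells taken from embryoid bodies on magnetic columns, and 3 populations sorted by flow cytometry from blast culture. The latter were hemogenic endothelium without CD41 (HE1, KIT+ CD41- Tie2+), hemogenic endothelium with CD41 (HE2, KIT+ CD41+ Tie2+) and hematopoietic progenitors (KIT+ CD41+ Tie2-), from floating and adherent cells combined. Sp1+/+ cells, titled E14 with the strain given as C57BL/6, carried both normal alleles, while both alleles of Sp1-/- cells encode a shortened protein without the DNA-binding domain. The Sp1-/- cells were a single ES cell clone. Each of the 8 groups held 2 arrays of the 16, described by the record as independent replicates, although a legend of the study speaks of technical replicates; if so, the p-values measure technical spread only.

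Sp1 itself was lower in Sp1-/- cells in every population, with log2 differences of -2.28 (Flk1+ cells), -3.28 (HE1), -2.56 (HE2) and -2.9 (progenitors). Where the Sp1 probe lies relative to the part missing in the mutant was not checked, so it may not measure the whole transcript. Between 67% and 77.1% of spots stood well above background on each array, and the 10 members did so on all 16. The probe for Tek, which encodes Tie2, read 7.16 and 8.15 in Sp1+/+ Flk1+ cells and 12.34 and 12.5 in HE1, and that for Itga2b, which encodes CD41, 7.37 and 8.3 in Flk1+ cells and 12.21 and 11.95 in HE2. Itga2b also rose by 2.77 from Flk1+ cells to HE1 in Sp1+/+ cells (adjusted p = 1e-04 by limma), although HE1 was sorted as CD41-. In Sp1-/- cells Tek rose by 4.11 into HE1 (adjusted p = 5.92e-05 by limma). From HE2 to progenitors, sorted as Tie2-, Tek differed by -1.98 in Sp1+/+ and -2.73 in Sp1-/- cells, given without a test. The Kdr probe (Flk1) lay between 13.56 and 15.37 on all arrays and did not separate the populations. The 8 Sp1+/+ arrays shared 1 slide and the 8 Sp1-/- arrays another, and an effect of the slide therefore cannot be told apart from that of genotype.

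Heat shock proteins keep other proteins folded. Small heat shock proteins form large assemblies that hold unfolded proteins without using ATP. Hspb1 and Cryab also bind actin and intermediate filaments, and they are abundant in muscle and other contractile cells. HSP70 proteins bind and release clients in an ATP cycle that J-domain proteins such as Dnajb1 start and exchange factors such as Hsph1 reset, HSP90 matures kinases and receptors, and Hspd1 with its lid Hspe1 folds proteins inside mitochondria. Stress raises many of these genes through heat shock factors, which bind repeats of the letters GAA, and Sp1 binds GC boxes.

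Upstream sequences from RefSeq (GRCm38.p6) are shown for Hspb1 and Hspa1a, the members with a called genotype difference outside the progenitors, and for Hspb8, the other small heat shock protein with a sequence at its annotated start. Each line holds the 250 bases before the start of the gene, 5′ to 3′ on the coding strand; capitals mark GAANNTTC or TTCNNGAA (heat shock elements, the same on both strands) and GGGCGG (GC box) or its complement CCGCCC. Hspb1 lies on the plus strand at chr5:135887669-135887918, Hspa1a on the minus strand at chr17:34972157-34972406, and Hspb8 on the minus strand at chr5:116422865-116423114.
Hspb1: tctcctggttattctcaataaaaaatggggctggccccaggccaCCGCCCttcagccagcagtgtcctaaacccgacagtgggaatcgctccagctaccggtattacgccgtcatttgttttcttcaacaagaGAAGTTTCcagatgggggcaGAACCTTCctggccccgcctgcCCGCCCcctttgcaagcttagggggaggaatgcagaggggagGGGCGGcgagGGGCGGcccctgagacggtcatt
Hspa1a: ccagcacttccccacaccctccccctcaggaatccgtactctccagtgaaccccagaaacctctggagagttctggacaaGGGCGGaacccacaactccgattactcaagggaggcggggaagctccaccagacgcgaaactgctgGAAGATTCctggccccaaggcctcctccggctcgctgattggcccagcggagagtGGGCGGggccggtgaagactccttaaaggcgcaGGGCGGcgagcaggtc
Hspb8: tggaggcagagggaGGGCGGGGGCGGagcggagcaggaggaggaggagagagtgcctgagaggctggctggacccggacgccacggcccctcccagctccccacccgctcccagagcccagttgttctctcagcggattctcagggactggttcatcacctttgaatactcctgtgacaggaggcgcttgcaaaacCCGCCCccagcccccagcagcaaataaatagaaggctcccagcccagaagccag

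The Hspb1 sequence held 2 heat shock elements of the form GAANNTTC and 4 GC boxes, that of Hspa1a held 1 and 3, and that of Hspb8 held 0 and 3. Over all 32851 promoter windows, 12.8% held a heat shock element in either arrangement and 32.7% a GC box. Of the other members, Hspe1 held 2 GC boxes and 3 heat shock element matches. These 3 matches began 89, 84 and 79 bases before the start and overlapped in a continuous stretch, so they are not separate elements. Hspd1 held 0 heat shock elements and 1 GC box, and Dnajb1 held 0 and 1. Hspd1 and Hspe1 lie head to head on chromosome 1, where their annotated transcripts overlap by 96 bases. Cryab, Hspa8, Hsp90aa1 and Hsph1 had no window at their annotated start.

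Hspb1 had the most negative genotype difference of the 10 members in each of the 4 populations. This probe targets the mouse Hsp25 transcript. In Flk1+ cells the 2 Sp1+/+ arrays read a log2 intensity of 13.46 and 13.2 and the 2 Sp1-/- arrays 11.44 and 11.05. In HE1 they read 15.67 and 15.35 against 14.1 and 13.17, and in HE2 14.29 and 13.78 against 12.26 and 11.38. The groups did not overlap in any of these populations, and the Sp1-/- arrays were always the lower pair. Many genes had both Sp1-/- arrays below both Sp1+/+ arrays. Their share of all genes was 28.4% for progenitors, 23.8% for Flk1+ cells, 22.1% for HE1 and 21.3% for HE2. Being the lower pair therefore carries little weight by itself, for Hspb1 and for the members described below.

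A gene was called where limma gave an unadjusted p of at most 0.01 and a difference of at least 2-fold. Adjusted p-values (Benjamini-Hochberg over all genes tested) are given beside it. Hspb1 fell by 2.09 (SE 0.34, 4.24-fold, adjusted p = 0.00431 by limma) in Sp1-/- Flk1+ cells. In HE1 the Hspb1 difference was -1.88 (SE 0.34, 3.67-fold, adjusted p = 0.00716 by limma). In HE2 it was -2.22 (SE 0.34, 4.64-fold, adjusted p = 0.00299 by limma). These 3 sizes lay within each other's 95% intervals. Over the 12 alternatives run for each, some without 1 array, Hspb1 lay between -2.28 and -1.89 in Flk1+ cells. The range was -2.34 to -1.41 in HE1 and -2.65 to -1.77 in HE2. In HE1 and in HE2 the adjusted p did not stay under 0.05 in all of these alternatives. The interaction of genotype with the step from Flk1+ cells to HE1 was 0.21 for Hspb1 (95% interval -0.89 to 1.31), and that with the step from HE1 to HE2 was -0.34 (95% interval -1.44 to 0.76), so no change of the gap was detectable before the progenitor stage.

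In progenitors the gap was wider. The Sp1+/+ arrays read 14.57 and 14.26 for Hspb1 and the Sp1-/- arrays 9.02 and 8.76, a difference of -5.52 (SE 0.34) or 46-fold, which is the value that chose these genes. From HE2 to progenitors Hspb1 differed by 0.38 in Sp1+/+ cells and by -2.93 in Sp1-/- cells, so that the interaction term, also part of the choice, was -3.31 (SE 0.48). Across populations the order in Sp1+/+ cells was HE1, progenitors, HE2 and Flk1+ cells, with progenitors and HE2 overlapping. In Sp1-/- cells it was HE1, HE2, Flk1+ cells and progenitors, with HE2 and Flk1+ cells overlapping.

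Before that stage Hspb1 moved in the same direction in both genotypes, although the interaction intervals above reach past 2-fold. From Flk1+ cells to HE1 it rose by 2.18 (SE 0.34, adjusted p = 0.000558 by limma) in Sp1+/+ cells and by 2.39 (SE 0.34, adjusted p = 0.000264 by limma) in Sp1-/- cells. From HE1 to HE2 it changed by -1.47 (adjusted p = 0.0165 by limma) and by -1.81 (adjusted p = 0.00323 by limma). The Sp1+/+ call for this second step was lost without HE1 replicate 1 (-1.32) or without HE2 replicate 2 (-1.22), and the Sp1-/- call was lost when only the arrays compared were fitted (-1.82). In all 8 groups replicate 1, which lay in row 1 of its slide, read higher than replicate 2 for Hspb1, by 0.26 to 0.93.

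**Figure D1:**
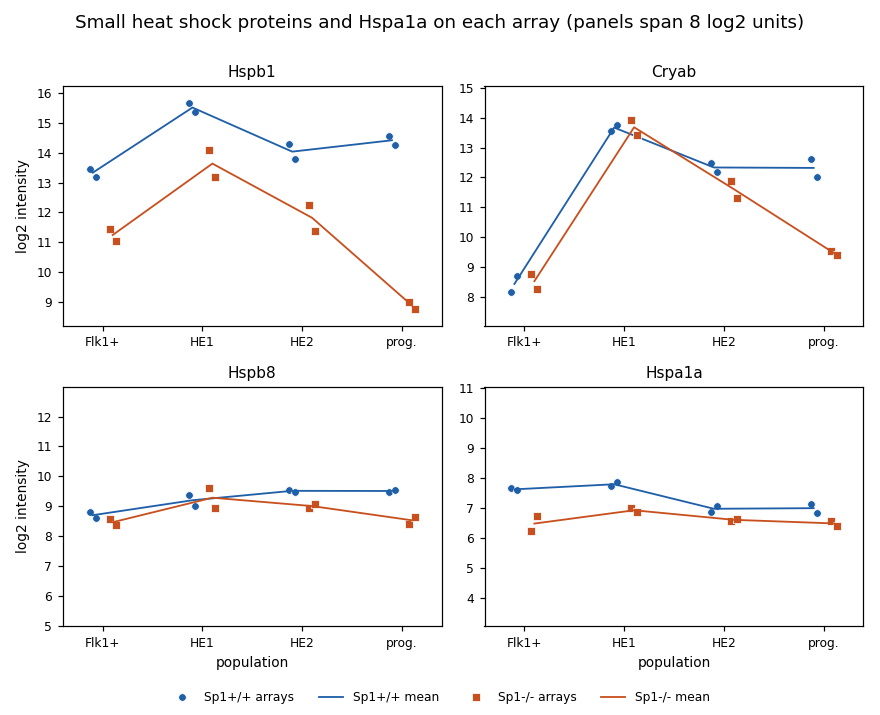
Log2 intensity (vertical axis) of Hspb1, Cryab, Hspb8 and Hspa1a in the 4 populations (horizontal axis; prog., progenitors), with 1 point per array, circles for Sp1+/+ and squares for Sp1-/-, lines joining the group means, and 8 log2 units in each panel. Hspb1 was lower in Sp1-/- cells in every population, while Cryab separated the genotypes widely only in progenitors, at 9.54 and 9.42 against 12.62 and 12.02.

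Cryab, the alpha B-crystallin of lens and muscle, shared the low progenitor level but not the earlier gap. Its Sp1+/+ arrays read 8.16 and 8.72 in Flk1+ cells, 13.57 and 13.77 in HE1, 12.47 and 12.2 in HE2, while progenitors gave 12.62 and 12.02. Its Sp1-/- arrays read 8.78 and 8.28, 13.93 and 13.43, 11.89 and 11.33, and 9.54 and 9.42. The genotypes overlapped in Flk1+ cells and HE1, while in HE2 and in progenitors both Sp1-/- arrays were lower.

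The step from Flk1+ cells to HE1 brought the widest change of any member. Cryab rose by 5.23 (SE 0.28, 37.5-fold, adjusted p = 3.18e-07 by limma) in Sp1+/+ cells and by 5.15 (SE 0.28, 35.5-fold, adjusted p = 3.2e-07 by limma) in Sp1-/- cells. From HE1 to HE2 it fell by 1.34 (adjusted p = 0.0109 by limma) and by 2.07 (adjusted p = 0.000478 by limma). Between genotypes the Cryab difference was 0.09 (95% interval -0.55 to 0.73) in Flk1+ cells, 0.01 (-0.63 to 0.65) in HE1 and -0.72 (-1.37 to -0.08, adjusted p = 0.192 by limma) in HE2, none of them called.

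Cryab then parted by genotype. From HE2 to progenitors it differed by -0.02 (95% interval -0.66 to 0.63) in Sp1+/+ cells and by -2.13 (SE 0.28, 4.38-fold) in Sp1-/- cells. The interaction was -2.12 (SE 0.40), and over the 16 alternatives run it lay between -2.42 and -1.71. Both hold the progenitor values that chose these genes and are given without a test. In progenitors the genotypes differed by -2.84 (SE 0.28) or 7.16-fold on the brightest probe, and by -2.21 on a second Cryab probe, both given without a test.

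Hspb2, another small heat shock protein outside the members, is annotated at chr9:50751072-50752354, inside the span annotated for Cryab at chr9:50745951-50756636. Its probe read 10.39 and 10.62 in Sp1+/+ HE1 and 7.12 and 7.29 in Sp1-/- progenitors. Like Cryab it rose from Flk1+ cells to HE1, by 2.65 in Sp1+/+ cells (adjusted p = 1.68e-05 by limma) and 1.66 in Sp1-/- cells (adjusted p = 0.000409 by limma). From HE2 to progenitors Hspb2 differed by -1.45 in Sp1-/- cells and by -0.27 in Sp1+/+ cells, given without a test.

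Hspb8 works with the co-chaperone Bag3 in clearing misfolded proteins by autophagy. Its Sp1+/+ arrays read 8.8 and 8.6 in Flk1+ cells, 9.38 and 9.02 in HE1, 9.55 and 9.48 in HE2, and progenitors gave 9.47 and 9.55. Its Sp1-/- arrays read 8.57 and 8.36, 9.62 and 8.95, 8.95 and 9.06, and 8.42 and 8.64. The genotypes overlapped in HE1, and the Sp1-/- pair was the lower in the other populations.

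The Hspb8 difference was -0.24 in Flk1+ cells (adjusted p = 0.589 by limma), 0.08 in HE1 (adjusted p = 0.866 by limma) and -0.51 in HE2 (adjusted p = 0.187 by limma), none called. In progenitors it was -0.98, just under 2-fold, given without a test; it was -1.05 with a normexp offset of 16, -1.03 with no background correction and -1.06 on the scanner's processed signal, past 2-fold in each. Bag3 read 12.33 and 12.21 in Sp1+/+ progenitors and 10.88 and 10.89 in Sp1-/- progenitors, a difference of -1.38. From HE1 to HE2 Bag3 fell by 1.49 in Sp1-/- cells (adjusted p = 4.96e-05 by limma) and differed by -0.73 in Sp1+/+ cells (adjusted p = 0.00663 by limma), under 2-fold.

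**Figure D2:**
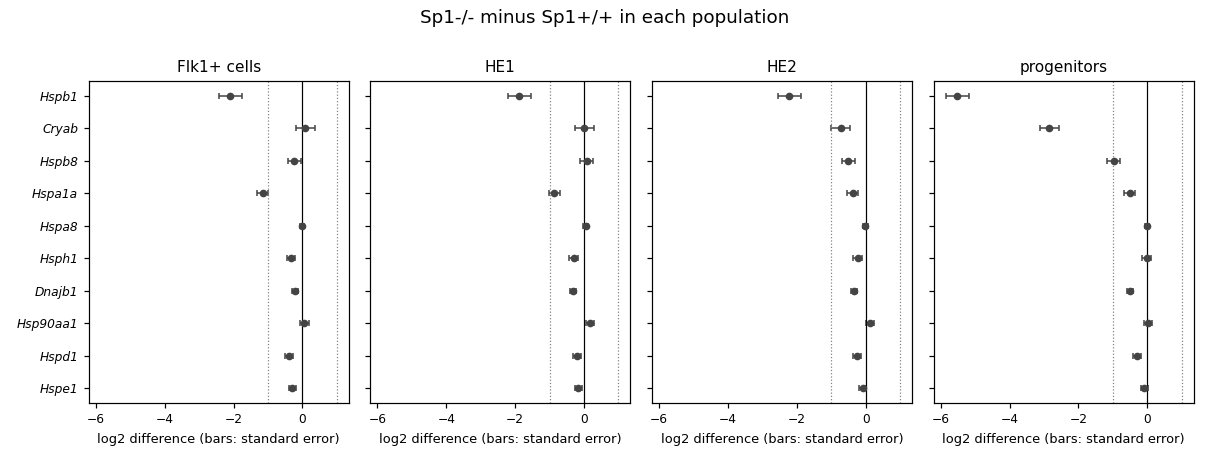
Log2 difference of Sp1-/- minus Sp1+/+ cells (horizontal axis) for each of the 10 members (vertical axis) in each population, with bars for the standard error of the limma fit and dotted lines at 2-fold. Hspb1 lay beyond 2-fold in all 4 panels, at -2.09, -1.88, -2.22 and -5.52, Hspa1a in Flk1+ cells at -1.15 and Cryab in progenitors at -2.84; the other points lay within the lines.

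Hspa1a, the stress-inducible HSP70, was the other member with a called genotype difference outside the progenitors. Its Sp1+/+ arrays read 7.66 and 7.59 in Flk1+ cells, 7.73 and 7.86 in HE1, 6.88 and 7.07 in HE2, and progenitors gave 7.15 and 6.84. Its Sp1-/- arrays read 6.24 and 6.72, 6.99 and 6.86, 6.57 and 6.64, and 6.57 and 6.4. Both Sp1-/- arrays were lower in every population, with the widest gap in Flk1+ cells.

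Hspa1a fell by 1.15 (SE 0.16, 2.21-fold, adjusted p = 0.00167 by limma) in Sp1-/- Flk1+ cells. In HE1 the difference was -0.87 (SE 0.16, adjusted p = 0.00706 by limma), under 2-fold, and in HE2 it was -0.37 (adjusted p = 0.239 by limma). In progenitors it was -0.51, without a test. From HE1 to HE2 Hspa1a differed by -0.82 in Sp1+/+ cells (adjusted p = 0.0067 by limma) and by -0.32 in Sp1-/- cells (adjusted p = 0.2 by limma). The Flk1+ call was lost without Sp1-/- Flk1+ replicate 1 (-0.91), and on the scanner's processed signal the difference was -2.29. These Hspa1a values lie near the bottom of the deposited scale, where the lowest value was 5.65. The gene has a near-identical copy, Hspa1b, at chr17:34956429-34959238, so the probe may read both transcripts and its values are uncertain.

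Hspa8, the constitutive HSP70 that also uncoats clathrin vesicles, differed least. All 16 arrays lay between 18.07 and 18.25, and the 4 genotype differences lay between -0.01 and 0.05. The 95% intervals for Hspa8 were -0.17 to 0.15 in Flk1+ cells, -0.11 to 0.21 in HE1 and -0.17 to 0.16 in HE2. In progenitors the difference of -0.01 became 0.35 on the scanner's processed signal. The 2 dimmer Hspa8 probes gave genotype differences between -0.25 and 0.24.

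Dnajb1, the J-domain partner that delivers clients to HSP70, was slightly lower in every Sp1-/- population. Its Sp1+/+ arrays lay between 14.3 and 14.62 and its Sp1-/- arrays between 13.99 and 14.2. The difference was -0.21 in Flk1+ cells (adjusted p = 0.213 by limma), -0.31 in HE1 (adjusted p = 0.0514 by limma) and -0.34 in HE2 (adjusted p = 0.0504 by limma), and none was called. In progenitors it was -0.49, without a test.

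Hsph1, the HSP110 exchange factor, read 14.07 and 14.21 in Sp1+/+ Flk1+ cells and 13.78 and 13.84 in the Sp1-/- ones. The difference was -0.33 in Flk1+ cells (adjusted p = 0.191 by limma), -0.30 in HE1 (adjusted p = 0.19 by limma), -0.23 in HE2 (adjusted p = 0.425 by limma) and -0.02 in progenitors, where the genotypes overlapped. A second Hsph1 probe gave -0.57, -0.41, -0.21 and -0.27. From Flk1+ cells to HE1 Hsph1 was lower by 0.67 (adjusted p = 0.00323 by limma) in Sp1+/+ cells and by 0.64 (adjusted p = 0.00371 by limma) in Sp1-/- cells, under 2-fold.

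Hsp90aa1, the inducible cytosolic HSP90, dipped in HE1 in both genotypes. Its Sp1+/+ arrays read 16.36 and 16.39 in Flk1+ cells, 15.35 and 15.51 in HE1, 16.09 and 16.21 in HE2, and progenitors gave 16.29 and 16.47. The Sp1-/- arrays read 16.36 and 16.51, 15.72 and 15.48, 16.24 and 16.29, and 16.29 and 16.51. The genotypes overlapped in all populations except HE2, and each HE1 array lay below every array of the other populations.

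The dip of Hsp90aa1 was -0.95 (SE 0.12, adjusted p = 0.000114 by limma) in Sp1+/+ cells and -0.83 (adjusted p = 0.000253 by limma) in Sp1-/- cells, and the return from HE1 to HE2 was 0.72 (adjusted p = 0.00302 by limma) and 0.67 (adjusted p = 0.00238 by limma). None of these reached 2-fold. Its genotype differences lay between 0.02 and 0.17.

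The mitochondrial pair followed the same course. Hspd1, the chaperonin barrel, read 16.51 and 16.59 in Sp1+/+ Flk1+ cells, 15.71 and 15.7 in HE1, 16.34 and 16.34 in HE2, and progenitors gave 16.47 and 16.68. Its Sp1-/- arrays read 16.12 and 16.2, 15.69 and 15.31, 16.15 and 16.01, and 16.22 and 16.32. The Sp1-/- pair of Hspd1 was the lower in each population, by 0.21 to 0.39, and no difference was called.

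Hspe1, its lid, read 16.13 and 16.15 in Sp1+/+ Flk1+ cells, 15.19 and 15.15 in HE1, 15.75 and 15.68 in HE2, and progenitors gave 15.87 and 16.02. The Sp1-/- arrays of Hspe1 read 15.84 and 15.86, 15.11 and 14.9, 15.71 and 15.53, and 15.8 and 15.91. Its genotype differences lay between -0.29 and -0.09, with none called and the arrays overlapping in HE2 and progenitors.

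From Flk1+ cells to HE1 Hspd1 was lower by 0.85 (adjusted p = 0.000346 by limma) in Sp1+/+ cells and by 0.66 (adjusted p = 0.0017 by limma) in Sp1-/- cells, and Hspe1 by 0.97 (adjusted p = 2.89e-05 by limma) and 0.84 (adjusted p = 6.86e-05 by limma). From HE1 to HE2 the return was 0.63 and 0.58 for Hspd1 and 0.54 and 0.62 for Hspe1. Each return had an adjusted p between 0.00137 and 0.00715 by limma. None of these changes reached 2-fold on the probes used. The dimmest Hspe1 probe moved by -1.11 and -1.08 into HE1 (Sp1+/+ and Sp1-/-), past 2-fold, and by 0.49 and 0.75 into HE2. The remaining Hspe1 probe moved by -0.93 and -0.92 into HE1 and by 0.51 and 0.54 into HE2, under 2-fold. Over the 16 arrays Hspd1 and Hspe1 were the pair of members with the highest Pearson correlation (0.955), and Hspa8 and Hspe1 the pair with the lowest (-0.852). The Hspa8 probe used spanned only 0.18 over these arrays. The dimmest Hspa8 probe moved in the direction of Hspe1, by -0.08 and -0.33 into HE1 and by 0.16 and 0.65 into HE2 (Sp1+/+ and Sp1-/-). The remaining Hspa8 probe moved by 0.11 and 0.24 into HE1, opposite to Hspe1. The correlations are descriptions over arrays that share slides and populations.

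**Figure D3:**
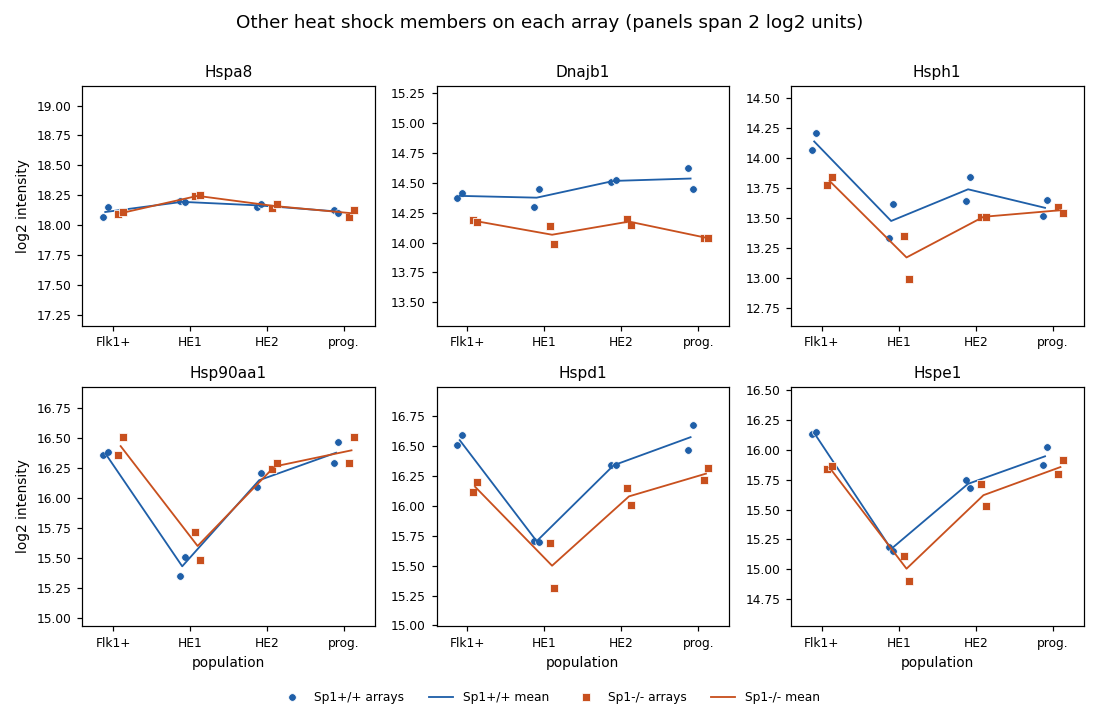
Log2 intensity (vertical axis) of Hspa8, Dnajb1, Hsph1, Hsp90aa1, Hspd1 and Hspe1 in the 4 populations (horizontal axis; prog., progenitors), with 1 point per array, circles for Sp1+/+ and squares for Sp1-/-, lines joining the group means, and only 2 log2 units in each panel. Hsp90aa1, Hspd1 and Hspe1 were lowest in HE1 in both genotypes, and Hspa8 lay between 18.07 and 18.25 throughout.

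Counted over the members, 2 of 10 were called lower in Sp1-/- Flk1+ cells (Hspb1 and Hspa1a), against 0.872% of all genes. In HE1 1 of 10 was called lower (Hspb1), against 1.14%, and in HE2 1 of 10 (Hspb1), against 1.17%. In progenitors 2 of 10 were beyond the same limits (Hspb1 and Cryab), where 2.59% of all genes were called lower. This comparison chose the members, so nothing is read from that count. No member was called higher in Flk1+ cells, HE1 or HE2, against 0.778%, 0.972% and 0.773% of all genes. None lay higher past the limits in progenitors, against 1.51%. With shares this low, nothing is read from the absence of higher members. On the scanner's processed signal the split of all genes called moved most in HE1, from 361 higher and 422 lower to 1378 and 644, and moved in HE2 from 287 and 435 to 995 and 721. The median difference of the 10 members was -0.26, -0.19, -0.3 and -0.4 from Flk1+ cells to progenitors, beside 0.01, 0.01, 0.01 and 0.02 for all genes. Without Hspb1 the progenitor median was -0.3.

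Over the steps, 2 members (Hspb1 and Cryab) rose from Flk1+ cells to HE1 in each genotype, against 4.66% of all genes in Sp1+/+ cells and 4.62% in Sp1-/- cells. The same 2 fell from HE1 to HE2 in each genotype, against 2.23% and 3.52%. From HE2 to progenitors 0 members lay past the limits in Sp1+/+ cells, where 1.74% of all genes were called. This step shares the Sp1+/+ progenitor arrays of the comparison that chose the members, so nothing is read from that count. In Sp1-/- cells Hspb1 and Cryab lay past the same limits, where 2.66% of all genes were called lower; this step holds the values that chose the members, and nothing is read from the count. The interaction with the step from Flk1+ cells to HE1 called 0 members (1.6% of all genes), with the lowest unadjusted p by limma at 0.238. Of all genes this interaction called 264 higher and 331 lower, and on the processed signal 544 and 399. That with the step from HE1 to HE2 called 0 members (0.74% of all genes), with Hspa1a the only 1 under an unadjusted p of 0.05 by limma (0.0444). For the step from HE2 to progenitors Hspb1 and Cryab lay past the limits, where 0.91% of all genes were called lower, and nothing is read from this count for the same reason.

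**Figure D4:**
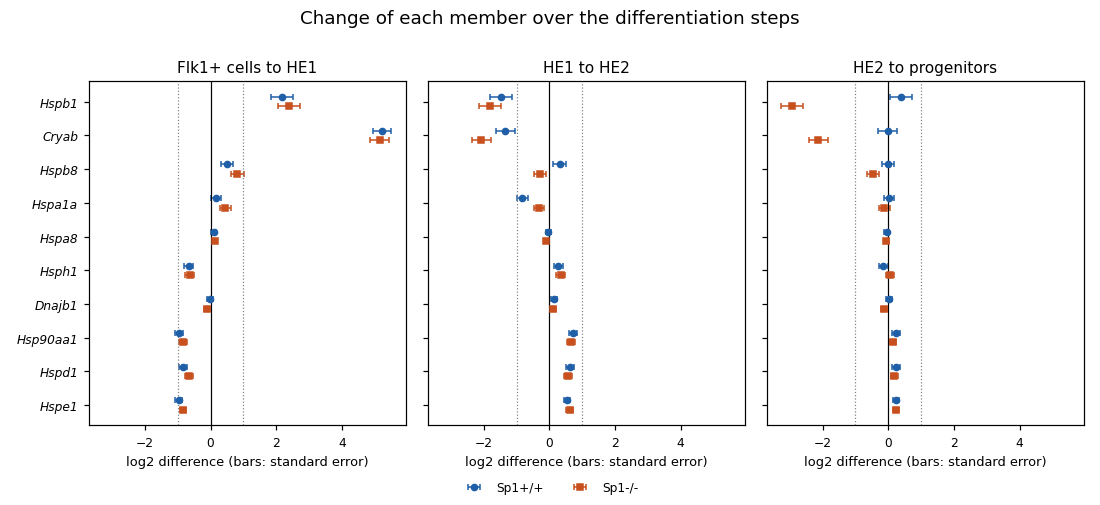
Log2 difference between successive populations (horizontal axis) for each of the 10 members (vertical axis), with circles for Sp1+/+ and squares for Sp1-/- cells, bars for the standard error of the limma fit and dotted lines at 2-fold. The genotypes moved alike for Cryab into HE1, at 5.23 and 5.15, and lay apart from HE2 to progenitors for Hspb1, at 0.38 and -2.93, and for Cryab, at -0.02 and -2.13.

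The wider chaperone network was counted in lists of related genes. Of 9 other cytosolic HSP70, HSP110 and HSP90 genes tested, Hspa2, the testis-enriched HSP70, was called higher in Sp1-/- Flk1+ cells (1.38, adjusted p = 0.000819 by limma) and HE2 (1.26, adjusted p = 0.00117 by limma), and stood higher by 1.58 in progenitors. Hspa12b was the only 1 called lower, in HE2 (-1.03, adjusted p = 0.00842 by limma). Of 6 other small heat shock proteins 1 was called lower in HE2, Hspb2 (-1.11, adjusted p = 0.0246 by limma), against 1.17% of all genes. In progenitors 2 lay lower past the same limits, Hspb2 (-2.3) and Cryaa (-1.05), against 2.59%, given without a test.

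Of 15 J-domain genes none was called between genotypes in Flk1+ cells, HE1 or HE2. In progenitors 2 lay higher past the same limits, Dnajb3 (1.32) and Dnaja4 (1.17), against 1.51% of all genes, given without a test. Of 19 co-chaperones of HSP70 and HSP90 none was called in Flk1+ cells, HE1 or HE2. In progenitors Bag3 alone lay past the limits, where 2.59% of all genes were lower, given without a test. None of the 8 subunits of the cytosolic chaperonin TRiC, the 14 mitochondrial chaperones and proteases, the 14 endoplasmic reticulum chaperones or the 5 heat shock factors was called between genotypes in any population. The median difference of these 4 lists lay between -0.23 and 0.12. Hsf1, the main stress-responsive factor, read between 11.62 and 12.14 on all 16 arrays.

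Over the step from Flk1+ cells to HE1 the HSP90 co-chaperones Fkbp4 and Ppid fell in both genotypes. Fkbp4 fell by 1.12 in Sp1+/+ cells (adjusted p = 0.000147 by limma) and by 1.19 in Sp1-/- cells (adjusted p = 8.41e-05 by limma). Ppid fell by 1.14 (adjusted p = 2.38e-05 by limma) and by 1.04 (adjusted p = 4.2e-05 by limma). The TRiC list had a median of -0.37 in Sp1+/+ and -0.47 in Sp1-/- cells over this step, with none called, and the endoplasmic reticulum list one of 0.64 and 0.75. Of 13 immediate-early genes, which cell dissociation is known to raise, 9 rose in each genotype, and their mean level went from between 9.52 and 9.76 in Flk1+ cells to between 11.51 and 11.99 in HE1. Flk1+ cells were isolated by columns and HE1 by sorting, so isolation and this step cannot be told apart.

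Markers of other cell types moved with Hspb1 at the progenitor stage. Of 16 mesenchymal, smooth muscle and fibroblast markers, 9 were lower in Sp1-/- progenitors, led by Col1a1 (-4.7), Cnn1 (-3.96) and Tpm2 (-3.73). Their mean level was between 10.98 and 11.33 in Sp1+/+ progenitors and between 8.94 and 8.98 in Sp1-/- progenitors, where Pdgfra and Lum were not well above background on either array. Of 7 epithelial markers 4 were lower there, led by Krt19 (-4.57), Krt8 (-4.4) and Krt18 (-3.46), with means between 9.77 and 9.93 against 7.9 and 7.93. Of 13 endothelial markers 4 were lower, with means between 9.62 and 10.59 against 8.75 and 8.97, and of 10 erythroid markers 5 were higher, with means between 12.49 and 13.94 against 15.56 and 15.6. Of 13 cardiac and skeletal muscle markers 1 was lower, and of 11 blood cell markers 1 was higher. These marker counts use the same limits, past which 2.59% of all genes were lower and 1.51% higher, and carry no test. Their part in the Hspb1 and Cryab values of progenitors was not tested. In such bulk samples fewer cells of a type and less RNA per cell cannot be told apart.

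In the earlier populations the mesenchymal list had the following levels, and its part in the Hspb1 values there was not tested. Its mean was between 9.99 and 10.01 in Sp1+/+ Flk1+ cells and between 9.86 and 9.94 in Sp1-/- ones, with 2 of 16 called lower (Tpm2 and Thy1). In HE1 the list mean was between 11.05 and 11.71 in Sp1+/+ cells and between 11.24 and 11.98 in Sp1-/- cells, with 2 called higher (Dcn and Lum) and 2 lower (Tpm2 and Myl9). In HE2 it was between 10.26 and 11.13 and between 10.16 and 10.53, with Tpm2 and Myl9 called lower. The epithelial means overlapped between genotypes in HE1 and HE2 and were higher in Sp1-/- Flk1+ cells, at 10.4 and 10.48 against 9.87 and 9.99. From Flk1+ cells to HE1, where Hspb1 and Cryab rose, 8 mesenchymal markers rose in Sp1+/+ and 10 in Sp1-/- cells, led by Acta2 (8.43 and 7.76), and 12 of 13 endothelial markers rose in each.

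The genes outside the members whose levels over the 16 arrays were most like those of Hspb1 were Tpm2 (Pearson correlation 0.968), Pld2 (0.963), Slc25a4 (0.961), Myl9 (0.959) and Pcolce (0.958), of 20102 other named genes. Tpm2 encodes a tropomyosin, Myl9 the smooth muscle myosin light chain, Pcolce a procollagen-processing enhancer, Pld2 a phospholipase and Slc25a4 the mitochondrial ADP/ATP carrier. Among members Hspb8 and Hspa1a came closest (each 0.732), followed by Dnajb1 (0.691) and Cryab (0.658), and Hsp90aa1 was the most opposed (-0.58). The likeness rests in part on the Sp1-/- progenitor arrays that chose Hspb1, and it was measured over all populations, so genes chosen by it had to be low where Hspb1 was low.

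The genotype differences of these 5 genes are therefore given without a test. For Tpm2 the difference was -1.57 in Flk1+ cells, -1.8 in HE1 and -1.75 in HE2. For Pld2 it was -1.65, -1.66 and -1.47, and for Pcolce -1.04, -0.96 and -1.64. Myl9 differed by -0.34, -1.19 and -1.26, and Slc25a4 by -0.79, -0.55 and -0.64. In progenitors the differences of the 5 genes lay between -3.73 and -1.21.

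**Figure D5:**
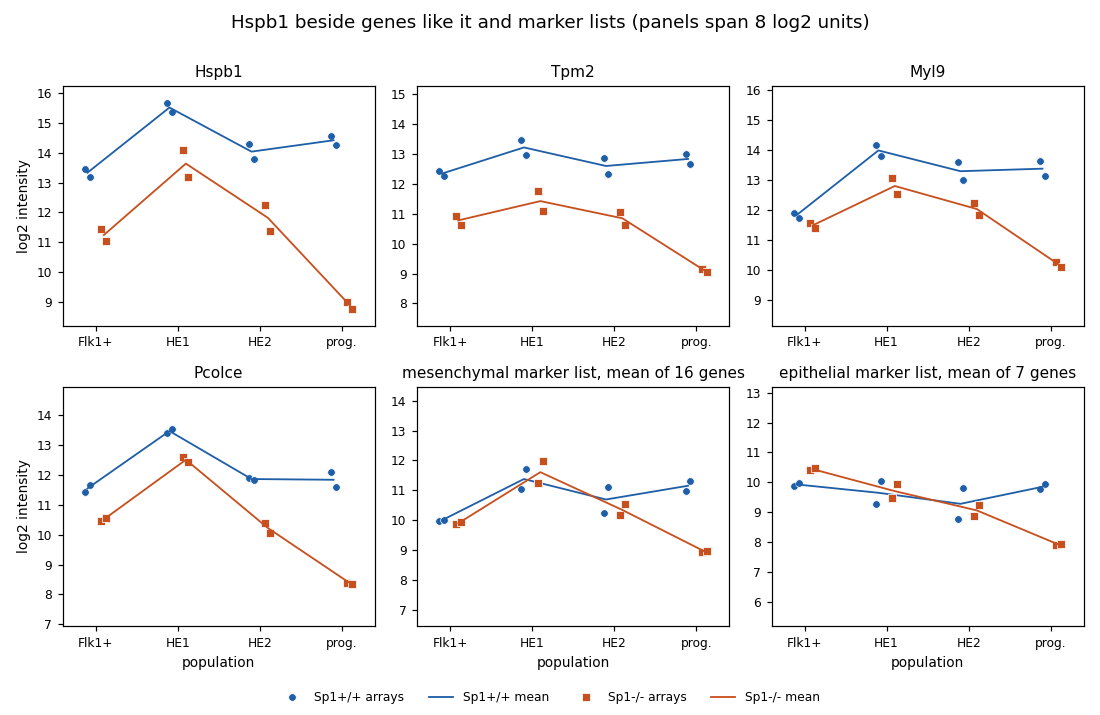
Log2 intensity (vertical axis) of Hspb1, of Tpm2, Myl9 and Pcolce, and of the mean over the mesenchymal and the epithelial marker lists, in the 4 populations (horizontal axis; prog., progenitors), with 1 point per array, circles for Sp1+/+ and squares for Sp1-/-, lines joining the group means, and 8 log2 units in each panel. Both list means were lower in Sp1-/- progenitors, and in Flk1+ cells the mesenchymal mean lay between 9.86 and 10.01 in both genotypes.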

How the data were processed

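Whole-mouse-genome 1-colour Agilent arrays were scanned for 16 samples of 8 groups. Per the labels, Feature Extraction 10.7.1.1 was used (10.7.3.1 in the file headers), followed by limma. The deposited log2 values matched normexp background correction with an offset of 50 and quantile normalization of the scanner median intensity to within 0.005; the study's methods name an offset of 16. The deposited scanner intensity was used in alternatives only. Probes were matched to genes by RefSeq accession (20869 of 37932 targets), or by symbol (12), and otherwise kept their target name; the brightest probe of a gene with a log2 value of at least 6 on at least 1 array was kept. One model with 8 group means, 16 arrays and 8 residual degrees of freedom was fitted in R 4.3.3 with limma 3.58.1 and tested on simulated data. Depth does not apply to arrays; 2 arrays per group limit the precision. Members and gene lists were chosen with earlier results of these data known. All members were described, with at most 3 genes called higher and 3 lower per list and comparison, the 5 genes most like Hspb1, and Sp1. Bag3, Hspb2, Hsf1 and the values of other list genes in comparisons where they were not called were given after their values were seen. Figures used matplotlib.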

Additional observations from a re-analysis of the deposited data

Results flagged for a closer look

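The change from HE2 to progenitors differed between genotypes for Cryab by -2.12 (SE 0.40), the interaction term of limma, with both Sp1-/- progenitor arrays below both Sp1-/- HE2 arrays and the Sp1+/+ arrays of these populations overlapping. The same term was -3.31 (SE 0.48) for Hspb1, and since both terms hold the progenitor values these genes were chosen by, neither carries a test. Over this step 28.1% of all genes had both Sp1-/- progenitor arrays below both Sp1-/- HE2 arrays. With 2 arrays per group, no single array could be examined as an outlier.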

How the results depend on the processing

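Every comparison was refitted under 9 alternatives and without each of the 16 arrays in turn. The count of members called in HE1 between genotypes rose from 1 to 2 with a normexp offset of 16 and to 2 with no background correction, the addition in each being Hspa1a (-1.1 and -1.01). In progenitors the count was 3 in place of 2 under both of these and on the scanner's processed signal, and from HE1 to HE2 in Sp1+/+ cells it was 3 in place of 2 with an offset of 16 and on the processed signal. On the scanner's processed signal, with no intensity filter because its scale differs, the count from Flk1+ cells to HE1 was 4 in Sp1+/+ and 4 in Sp1-/- cells in place of 2, and the progenitor median of the members other than Hspb1 was -0.11 in place of -0.3; with this scaling the median difference of all genes was 0.19 in place of 0.01 in HE1 between genotypes. It called 1360, 2022, 1716 and 2953 genes between genotypes from Flk1+ cells to progenitors, in place of 613, 783, 722 and 1525; over the 3 steps in order it called 4850, 2033 and 1296 in Sp1+/+ cells in place of 3175, 1228 and 648, and 5303, 3399 and 3592 in Sp1-/- cells in place of 3528, 2081 and 1852. Fitting only the arrays compared left 1 of 2 members called from HE1 to HE2 in Sp1-/- cells (fewer samples). Leaving out 1 array gave 1 to 2 members in Flk1+ cells between genotypes (Sp1-/- Flk1+ replicate 1), 1 to 2 from HE1 to HE2 in Sp1+/+ cells (HE1 replicate 1 or HE2 replicate 2), 2 to 3 in progenitors (without Sp1+/+ replicate 1 or Sp1-/- replicate 2) and from Flk1+ cells to HE1 in either genotype (HE1 replicate 2), and a median of -0.35 to -0.2 for the other members in progenitors. Hspb1 in progenitors ranged from -5.68 to -5.37. Where a group was left with 1 array, that array was assumed to vary like the other groups. The cause of these shifts was not tested otherwise.

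Replicate numbers are shared by the groups, but deviations of same-numbered arrays correlated between genotypes at 0.226 (Flk1+ cells), 0.285 (HE1), -0.173 (HE2) and -0.112 (progenitors), so they were not taken as pairs. Over all pairs of groups, which include populations of the same genotype, the correlation ranged from -0.173 to 0.503. Pairing over the steps was therefore not settled by this check. Each group holds 1 array of each number, so a replicate block cannot move a difference (Hspb1 at -2.09, -1.88 and -2.22 in Flk1+ cells, HE1 and HE2), but only its error; no count of members changed under it. A crossed pairing, chosen after seeing the data, called 721 genes in HE2 and 1534 in progenitors, against 728 and 1539 with the numbers as given and 722 and 1525 without a block.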
